A study of Mus musculus with 6 samples.

Results

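The genes Mt1, Mt2, Mtf1 and Slc30a1, which encode the 2 widely expressed metallothioneins and proteins that set their metal response, were followed in cochlear lateral wall of young and old mice. They were chosen by name from a list drawn up with the old and young levels of this table known, and all 4 are among the 17091 gene symbols measured. Their old and young values are therefore given as a description, without a test. The lateral wall is the outer side of the cochlear duct. It holds the stria vascularis, a metabolically active secretory epithelium, and the fibrocytes of the spiral ligament.

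Bulk RNA came from 6 CBA/CaJ mice of an inbred strain, with no transgene or treatment given in the labels. The young group held 3 mice aged 2 months and the old group 3 mice aged 2.5 years, and both cochleas of a mouse were combined into 1 library. Between 37055355 and 39103398 reads per library could be recovered from the deposited values, which are normalised read counts, that is reads divided by a size factor of the library. The tissue label and the titles give lateral wall, while the source label of every sample gives auditory nerve cells. Markers of marginal cells (Kcnq1, Kcne1), intermediate cells (Dct, Kcnj10), basal cells (Cldn11) and fibrocytes (Coch, Otos) were all abundant, the lowest single value being 8301 normalised read counts. Other markers of these cells were lower, such as Tyrp1 (0.97 to 24.9) and Pmel (32.5 to 71.1) of intermediate cells and Gja1 (208 to 495) of fibrocytes. Markers of neurons and Schwann cells summed to between 18731 and 32355 per library. In old replicate 3, Xist stood at 45.2, against 24382 to 29162 in the other 5 libraries. The labels give no sex.

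Metallothioneins are small proteins rich in cysteine that bind zinc and copper. When free zinc rises, the zinc finger factor MTF-1, the product of Mtf1, enters the nucleus and binds metal response elements in the promoters of Mt1, Mt2 and Slc30a1. Slc30a1 encodes ZnT1, the transporter that carries zinc out of the cell, so both arms lower free zinc. Glucocorticoids and oxidative stress also induce Mt1 and Mt2, and acute-phase signals through STAT3 do so in several tissues.

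Mt1 and Mt2 lie side by side on mouse chromosome 8 (GRCm38 coordinates, GENCODE M21; mm10 is the same assembly). Mt2 runs from 94172664 to 94173568 and Mt1 from 94179082 to 94180327, both on the plus strand and 5513 bases apart. Mt3 and Mt4, the other genes of the cluster, precede them at 94152607 to 94154146 and at 94137197 to 94139031. Mtf1 lies on chromosome 4 from 124802104 to 124849800 and Slc30a1 on chromosome 1 from 191906767 to 191913247. All values are counts over a whole gene.

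The 250 bases before the RefSeq start of Mt2, Mt1 and Slc30a1 (GRCm38.p6, plus strand, 5′ to 3′) are shown because these are the genes with metal response elements. They span chr8:94172368-94172617, chr8:94178839-94179088 and chr1:191906531-191906780. Capitals mark matches to the 7-base core of the element, searched on both strands as TGCACNC and TGCGCNC.
Mt2: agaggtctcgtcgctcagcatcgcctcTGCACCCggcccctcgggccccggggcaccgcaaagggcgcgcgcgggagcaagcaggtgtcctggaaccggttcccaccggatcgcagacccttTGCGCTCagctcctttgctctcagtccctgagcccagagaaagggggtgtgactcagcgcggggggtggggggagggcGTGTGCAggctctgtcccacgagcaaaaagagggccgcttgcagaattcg
Mt1: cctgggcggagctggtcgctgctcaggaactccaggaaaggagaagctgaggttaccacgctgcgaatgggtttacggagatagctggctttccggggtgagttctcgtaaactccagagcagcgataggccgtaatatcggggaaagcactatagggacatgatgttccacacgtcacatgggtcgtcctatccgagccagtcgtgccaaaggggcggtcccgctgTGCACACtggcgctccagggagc
Slc30a1: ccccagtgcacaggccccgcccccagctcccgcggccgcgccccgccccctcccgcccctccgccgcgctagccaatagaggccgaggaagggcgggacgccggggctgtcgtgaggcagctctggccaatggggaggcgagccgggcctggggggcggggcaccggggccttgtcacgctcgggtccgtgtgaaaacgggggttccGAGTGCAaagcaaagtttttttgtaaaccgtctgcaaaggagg

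The upstream window of Mt2 held 3 matches, those of Mt1 and Slc30a1 1 each, and that of Mtf1 0. Of the 32851 RefSeq windows of this length, 21.4% held at least 1 match and 1.26% at least 3. Counted from the start, the Mt2 matches begin at −223, −128 and −50, and the last of them is on the opposite strand. With the 50 bases after the start included, the counts were 4 in Mt2, 3 in Mt1, 2 in Slc30a1 and 0 in Mtf1. Of all windows of that length, 0.518% held at least 4, 1.97% at least 3 and 7.11% at least 2. The Mt1 matches TGCACTC and TGCGCTC begin at bases 3 and 21 after its start. The annotations place some starts differently, since the GENCODE start lies at 46 from the RefSeq start for Mt2 and at −445 for Mtf1. Which starts these samples used was not measured, so the counts before and after the start hold for the RefSeq starts only. The search ended 50 bases after each RefSeq start, so matches further on, in Mt1 or the other genes, were not counted. A match describes letters and is no measurement of binding.

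**Figure D1:**
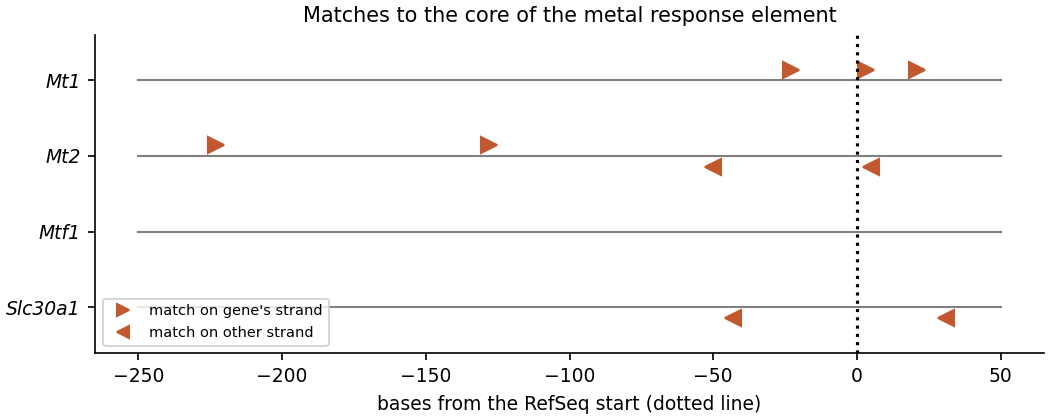
Position of each match to TGCACNC or TGCGCNC from 250 bases before to 50 bases after the RefSeq start, by gene; arrowheads point right for the gene's own strand and left for the other. Mt2 has 4 matches, Mt1 3, Slc30a1 2 and Mtf1 0.

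Mt1 was lower in every old library than in any young one. Its values in young replicates 1, 2 and 3 were 10757, 19694 and 17533 normalised read counts, and in old replicates 1, 2 and 3 they were 8729, 8418 and 7355. Young replicate 1 stood nearest to the old libraries. The young mean was 15995 ± 4663 and the old mean 8167 ± 720 (SD, n = 3 each), so that the young mean was 1.96 times the old. On the log2(value + 1) scale the difference, old minus young, was −0.93 ± 0.21 (SE).

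Mt2 was also lower in every old library, by more than Mt1. It stood at 5740, 11641 and 12090 in young replicates 1, 2 and 3 and at 4354, 3747 and 2703 in old replicates 1, 2 and 3. The young mean of 9824 ± 3544 was 2.73 times the old mean of 3601 ± 835 (SD, n = 3 each). The log2 difference was −1.40 ± 0.31 (SE). These 2 of the 4 genes are the ones whose groups did not overlap, and all old libraries lay below all young ones in 12.8% of the 17091 genes. In these bulk samples, fewer cells of a type and less RNA per cell cannot be told apart.

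Mtf1, the gene of the zinc-sensing factor, overlapped between the groups. Its values were 480, 903 and 877 in young and 653, 454 and 616 in old replicates 1, 2 and 3. Young replicate 1 lay among the old libraries, and the other young libraries lay above all of them. The means were 754 ± 237 and 574 ± 106 (SD, n = 3 each), a log2 difference of −0.35 ± 0.26 (SE). Slc30a1, the zinc exporter gene, overlapped as well, with 1337, 1823 and 1803 in young and 1160, 1396 and 1750 in old replicates 1, 2 and 3. Its means were 1654 ± 275 and 1435 ± 297, a log2 difference of −0.21 ± 0.18 (SE). Leaving out old replicate 3, where Xist was low, the log2 differences were −0.85 for Mt1, −1.21 for Mt2, −0.41 for Mtf1 and −0.36 for Slc30a1.

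**Figure D2:**
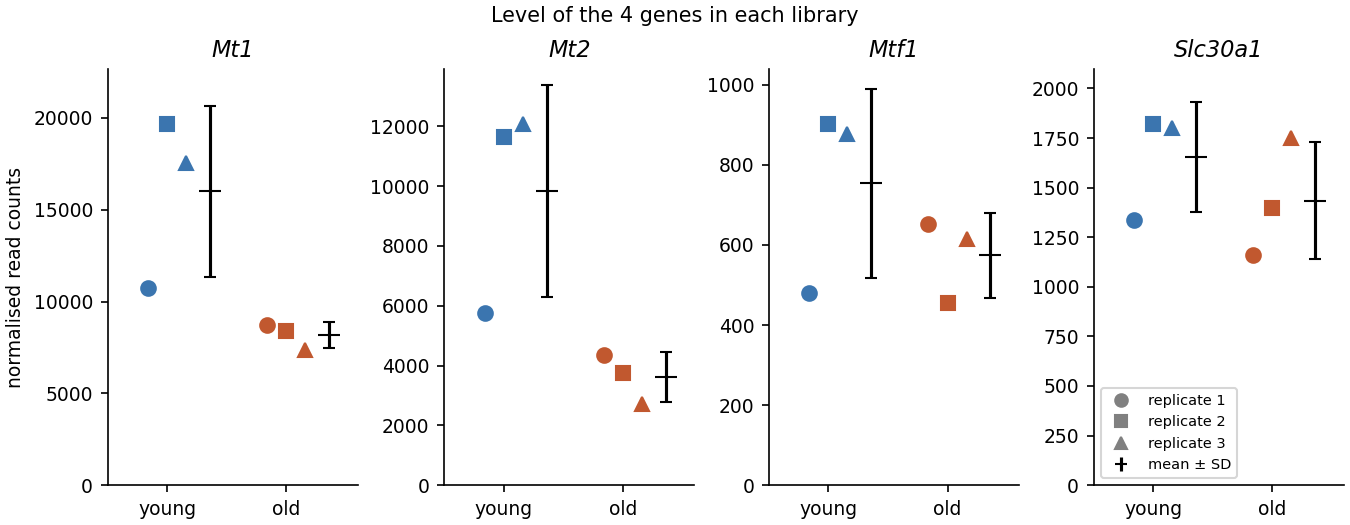
Normalised read counts of Mt1, Mt2, Mtf1 and Slc30a1 in each library by group, one symbol per replicate number, with the mean and SD of each group; the panels have their own axes from 0. The groups are apart in Mt1 (old at most 8729, young at least 10757) and Mt2 (4354 and 5740) and overlap in Mtf1 and Slc30a1.

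The counts behind these values were large for the metallothioneins, from 7655 to 18988 reads for Mt1 and from 2813 to 11841 for Mt2 per library. They were lower for Mtf1 (458 to 871) and Slc30a1 (1196 to 1821). Per kilobase of the principal transcript, the level of Mt1 was 29134 in young and 14876 in old mice, rank 45 and 101 of 16827 genes with an annotated length. Mt2 had 19224 and 7047 per kilobase (ranks 69 and 243), so both remained among the abundant transcripts of old lateral wall. Slc30a1 had 315 and 274, and Mtf1 98.8 and 75.3 per kilobase, ranks 6887 and 10305 in young mice. The order of levels per length, Mt1, Mt2, Slc30a1 and Mtf1, was the same in both groups.

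The balance between the metallothionein pair differed too. Per length, the ratio of Mt2 to Mt1 was 0.573, 0.635 and 0.741 in young and 0.536, 0.478 and 0.395 in old replicates 1, 2 and 3. All old ratios lay below all young ones, with young replicate 1 and old replicate 1 close together. The log2 ratio of the normalised counts, which is not per length, averaged −0.73 ± 0.19 over the young and −1.20 ± 0.22 over the old mice (n = 3 each, SD). The difference of −0.47 follows from the values that chose the genes and is not a test. Mt1 and Mt2 share no stretch of 50 bases in their annotated transcripts, so reads of that length would not be confused between them.

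**Figure D3:**
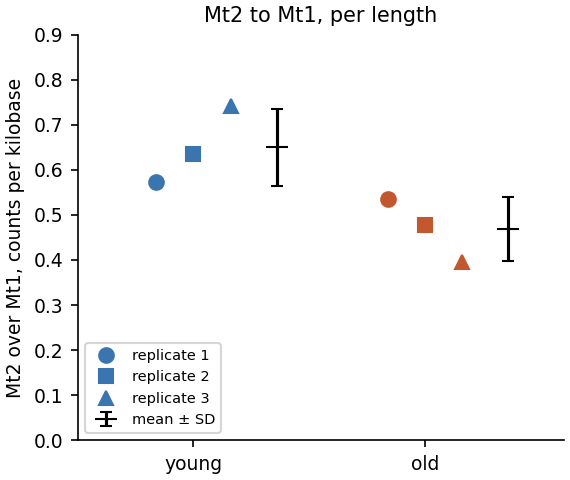
Ratio of Mt2 to Mt1 in each library, both as normalised counts per kilobase of the principal transcript, with group means and SD. The young ratios run from 0.573 to 0.741 and the old ones from 0.395 to 0.536.

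Strand is not stated, so reads of overlapping genes on opposite strands cannot be separated. Mt2 shares 45.8% of its 50-base stretches with the antisense gene Gm45774, which is not among the symbols of the table. Slc30a1 shares 8.01% with 1700034H15Rik, which averaged 21.4 in young and 28.4 in old mice. Mtf1 shares 7.55% with 1110065P20Rik, a protein-coding gene whose mean was 594 ± 70.7 for young and 667 ± 46.7 for old mice (n = 3 each, SD). That gene was highest of the young libraries in replicate 1, where Mtf1 was lowest.

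Within the young group, all 4 genes were lowest in replicate 1. Against the mean of the other young libraries, replicate 1 was lower by 0.79 log2 units in Mt1, by 1.05 in Mt2, by 0.89 in Mtf1 and by 0.44 in Slc30a1, that is by a factor of 1.73, 2.07, 1.85 and 1.36. A difference at least as low was seen in 1.77%, 0.804%, 1.26% and 8.57% of the 13308 genes whose mean was 50 or more, and the median gene had 0.02. The SD of the log2 values in young mice was 0.46 for Mt1, 0.61 for Mt2, 0.51 for Mtf1 and 0.25 for Slc30a1, against a median of 0.14. In old mice it was 0.13, 0.35, 0.28 and 0.30, against a median of 0.18, so Mt1 was steadier there than the median gene.

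Among old libraries the genes did not share an order. Mt1 and Mt2 were highest in replicate 1 and lowest in replicate 3, while Slc30a1 was lowest in replicate 1 and highest in replicate 3. Mtf1 was lowest in old replicate 2. The old libraries alone therefore gave no common direction for the 4 genes.

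**Figure D4:**
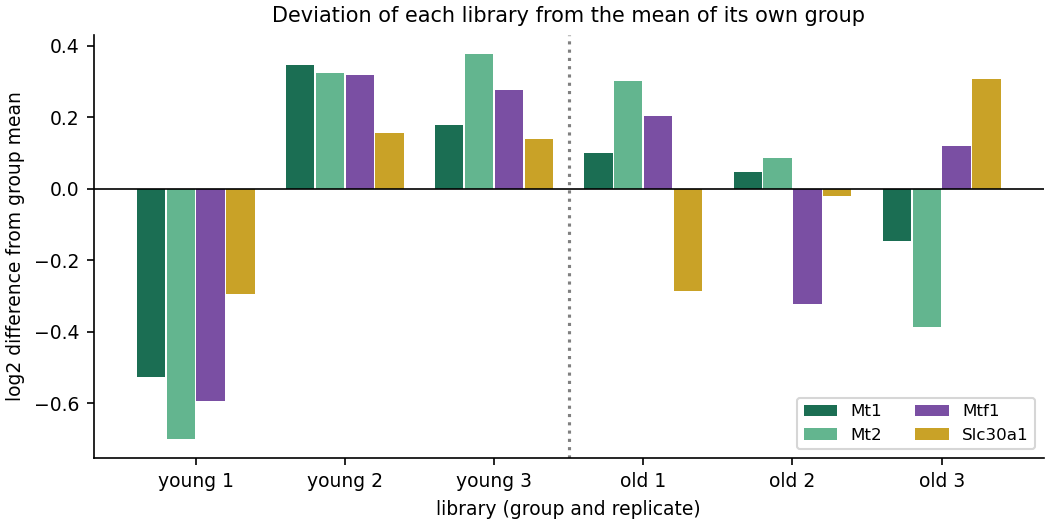
Log2 difference of each library from the mean of its own group for Mt1, Mt2, Mtf1 and Slc30a1; the dotted line separates young from old libraries. All 4 bars point down in young replicate 1 (−0.53, −0.70, −0.59 and −0.29) and up in young replicates 2 and 3, with mixed signs among the old libraries.

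A few other genes of the zinc and stress lists were as low in young replicate 1, and they are named here after their values were seen. Of 78 list genes with a mean of at least 50, 8 were at least as far below the other young libraries there as Slc30a1, and 2 as far as Mt1. The 8 are 10.3% of the list genes, near the 8.57% of all genes. Slc39a14, which encodes the zinc and iron importer ZIP14, stood at 3592 in replicate 1 and at 8661 and 8678 in the others. Ddit4, a stress gene that glucocorticoids induce, stood at 3299, 6603 and 6281. The glucocorticoid targets Fkbp5, Zbtb16 and Tsc22d3 had log2 differences of −0.72, −0.63 and −0.54 there. Others of that list did not, since Pdk4 had −0.12, Errfi1 0.02, Klf9 0.04, Sgk1 0.10 and Per1 0.36. What replicate 1 of the young mice differed in was not tested.

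To see which genes followed the members across libraries, 12799 named genes with a mean of at least 50 were ranked by Pearson's r of their log2 values over the 6 libraries, which share depth and grouping. The r values serve as a measure of likeness without a p. Nearest to Mt1 were Efnb3, Fam214b, Brd2, Zfp622 and Trim27 (r of 0.992 to 0.994). Nearest to Mt2 were Srebf2, the regulator of cholesterol synthesis genes, Inca1, the co-chaperone gene Bag3, Brd2 and Slc35c1 (0.991 to 0.994). Larp4b, Otud4, Gopc, Desi2 and Gtf3c4 were nearest to Mtf1 (0.994 to 0.998), and Gtpbp2, Rps6ka2, Mbd6, Ripor1 and Dennd6b to Slc30a1 (0.973 to 0.991). Brd2, a chromatin reader of acetylated histones, was in the lists of both metallothioneins, at a mean of 11828 in young and 8992 in old mice.

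Likeness of the deviations from the group means, which the difference between groups does not enter, gave other neighbours. For Mt1 these were Dsn1, Psen2, Zfp647, Gpbp1l1 and again Efnb3 (0.999 each). For Mt2 they were Bud13, Cdk7, Pigw, Zfp59 and the matrix gene Thbs2 (0.996 to 0.998). With 6 libraries and this many genes, high values of r are reached by many.

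The other genes were tested between old and young mice with limma, adjusted over all 17091 genes. At an adjusted p under 0.05, 5.25% of all genes were called, 2.71% higher and 2.55% lower in old mice. An unadjusted p under 0.05 by limma was reached by 3647 of the 17091 genes. For comparison with the list counts below, edgeR called 866 of all genes and DESeq2 1819. Mt3, the metallothionein best known from brain, was not called. It stood at 2924, 2282 and 2273 in young and at 2800, 2185 and 3726 in old replicates 1, 2 and 3, so it was not lowest in young replicate 1. Its log2 difference was 0.20 (95% interval −0.24 to 0.63, limma adjusted p = 0.612), and −0.00086 without old replicate 3. Mt4 is not among the symbols of the table.

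Zinc exporters other than Slc30a1 were not called, 0 of 8 by limma (1 with an unadjusted p under 0.05), 0 by edgeR and 1 by DESeq2. The one DESeq2 called, Slc30a2, encodes ZnT2, which loads zinc into vesicles. It had 211, 159 and 176 in young and 390, 231 and 472 in old replicates 1, 2 and 3, a log2 difference of 0.95 ± 0.26 (SE, limma adjusted p = 0.0771). All old libraries were above all young ones, opposite to the metallothioneins. Slc30a4 and Slc30a6, which encode transporters of intracellular compartments, had −0.22 ± 0.10 and −0.25 ± 0.12 (limma adjusted p of 0.236 and 0.277). The 8 exporters had a median log2 difference of −0.18, and 6 were below 0, where all genes had a median of −0.00097.

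Zinc importers of the SLC39 family were not called either, 0 of 13 by limma (2 with an unadjusted p under 0.05), edgeR or DESeq2. Their median was −0.24, and 11 of 13 were below 0, also with quantile normalisation, edgeR and DESeq2. The lowest p belonged to Slc39a7, which releases zinc from the endoplasmic reticulum. It stood at 8585, 8948 and 9557 in young and 7239, 8091 and 7047 in old replicates 1, 2 and 3, a log2 difference of −0.28 ± 0.10 (limma adjusted p = 0.142). Slc39a13 and Slc39a1 had −0.24 ± 0.09 and −0.21 ± 0.10 (adjusted p of 0.186 and 0.262). Slc39a14, an importer that inflammation induces, had −0.70 ± 0.40 (adjusted p = 0.369).

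**Figure D5:**
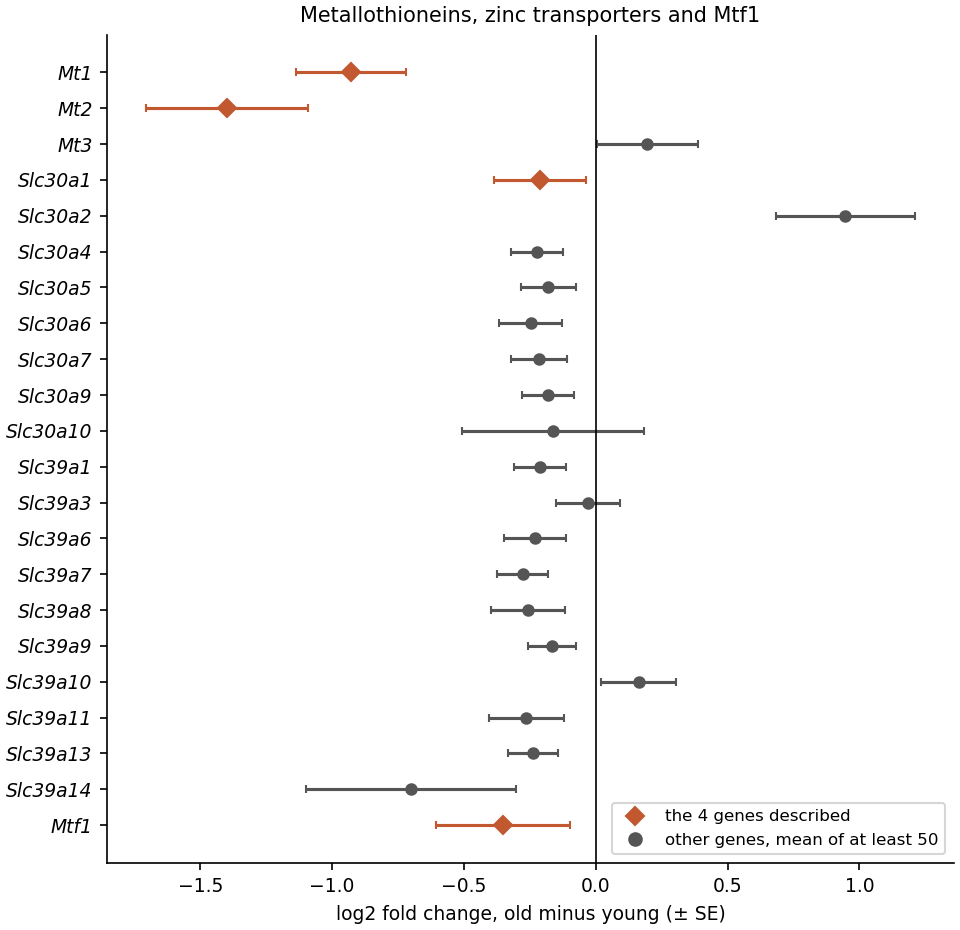
Log2 difference, old minus young, with SE for the 4 genes described (diamonds) and for the other metallothionein and zinc transporter genes with a mean of at least 50 (circles). Mt1 (−0.93) and Mt2 (−1.40) lie furthest to the left, while most transporters lie between −0.30 and 0 and Slc30a2 lies at 0.95.

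Other genes that MTF-1 is known to regulate were tested next. Of 7, limma, edgeR and DESeq2 called 0 (2 with an unadjusted p under 0.05 by limma), the median was 0.30 and 1 was below 0. The list was not divided into genes that MTF-1 raises or lowers, so its median has no single expected direction. Selenow, a selenoprotein gene, stood at 5718, 5654 and 4817 in young and 7217, 6444 and 6336 in old replicates 1, 2 and 3, a log2 difference of 0.31 ± 0.10 (limma adjusted p = 0.135). Csrp1, a LIM protein gene, had −0.15 ± 0.09 (adjusted p = 0.373). Hamp, the hepcidin gene, was near the limit of detection, with 0, 2.07 and 0 in young and 9.70, 11.3 and 1.92 in old replicates 1, 2 and 3 (adjusted p = 0.14).

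Factors that act at metallothionein promoters were also not called, 0 of 9 besides Mtf1 by limma, edgeR or DESeq2, with 0 at an unadjusted p under 0.05 by limma. Their median was −0.13, and −0.07 with quantile normalisation. Usf2, a bHLH factor, and the coactivator genes Ep300 and Crebbp had log2 differences of −0.18 ± 0.09, −0.26 ± 0.14 and −0.34 ± 0.22 (limma adjusted p of 0.288, 0.324 and 0.431). Nr3c1, which encodes the glucocorticoid receptor, had −0.15 ± 0.11 (adjusted p = 0.473).

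Among 10 glucocorticoid response genes, limma called 2 lower and 0 higher, edgeR 3 lower and DESeq2 5 lower, and 8 were below 0 (median −0.40). By limma, 7 of the 10 had an unadjusted p under 0.05. Zbtb16, which encodes the factor PLZF, stood at 1750, 2770 and 2634 in young and 1096, 647 and 1103 in old replicates 1, 2 and 3. It fell by 1.34 ± 0.25 on the log2 scale (limma adjusted p = 0.0215). Errfi1, an inhibitor of EGF receptor signalling, stood at 7956, 8272 and 7472 in young and 5424, 5814 and 6242 in old replicates 1, 2 and 3 and fell by 0.44 ± 0.10 (adjusted p = 0.0322). Fkbp5, which encodes a co-chaperone of the glucocorticoid receptor, had 6376, 12133 and 9083 in young and 4132, 1741 and 3276 in old replicates 1, 2 and 3. Its log2 difference was −1.63 ± 0.36, just outside the threshold (limma adjusted p = 0.0500228). It was called by edgeR (adjusted p = 0.0414). The call of Zbtb16 was lost without young replicate 2 (0.0913) or 3 (0.0961) and that of Errfi1 without young replicate 1 (0.083), 2 (0.138) or 3 (0.107) or old replicate 1 (0.092). Errfi1 was not called with quantile normalisation either (limma adjusted p = 0.0733), which left 1 of the 10 genes called.

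Genes that NRF2 induces under oxidative stress were not called, 0 of 10 by limma, edgeR or DESeq2 (1 with an unadjusted p under 0.05 by limma), with a median of 0.04. Slc7a11, the cystine transporter gene, Nqo1 and G6pdx had log2 differences of 0.38 ± 0.15, −0.22 ± 0.13 and 0.17 ± 0.10 (limma adjusted p of 0.187, 0.366 and 0.402). Of 12 IL-6 and acute-phase genes, limma and edgeR called 1 higher and 1 lower, and DESeq2 called 3 higher and 1 lower. By limma, 5 of the 12 had an unadjusted p under 0.05. Lcn2, a siderophore-binding protein of neutrophils and inflamed epithelium, stood at 56.7, 69.5 and 76.6 in young and 533, 197 and 968 in old replicates 1, 2 and 3. The neutrophil (5097, 587 and 9937) and erythroid (21942, 7125 and 43294) marker sums of the old libraries had the same order. A link to either was not tested. Lcn2 rose by 2.78 ± 0.51 on the log2 scale (limma adjusted p = 0.0236), and by 3.40 without old replicate 2. Il6ra, the IL-6 receptor gene, stood at 1163, 1310 and 1077 in young and 647, 545 and 648 in old replicates 1, 2 and 3 and fell by 0.95 ± 0.13 (adjusted p = 0.00572). It kept its call in all 6 runs without 1 library (adjusted p up to 0.033). Cebpd had 0.60 ± 0.17 (limma adjusted p = 0.0876) and was called by DESeq2 (adjusted p = 0.0267). The call of Lcn2 was lost without any 1 of the young libraries (adjusted p up to 0.105).

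Copper and iron genes were examined because metallothioneins bind copper and several of these proteins handle the same metals. Of 11 copper genes, limma and edgeR called 0 (2 with an unadjusted p under 0.05 by limma) and DESeq2 called 1 higher. Slc31a2, a copper transporter gene, had 0.62 ± 0.16 (limma adjusted p = 0.0603), with all old libraries above all young ones. Atp7b and Slc31a1 were not called (adjusted p of 0.209 and 0.307). Of 9 iron genes, limma and edgeR called 1 lower and 0 higher, DESeq2 1 lower and 1 higher, and limma with quantile normalisation 0 lower and 1 higher. By limma, 4 of the 9 had an unadjusted p under 0.05. Trf, the transferrin gene, stood at 208293, 179691 and 200281 in young and 95642, 138883 and 93134 in old replicates 1, 2 and 3 and fell by 0.87 ± 0.16 (limma adjusted p = 0.0206). Its call was lost without young replicate 1 (0.0785), 2 (0.0631) or 3 (0.0984) or old replicate 1 (0.0585), and with quantile normalisation (0.0518). Ftl1, the ferritin light chain gene, had 0.32 ± 0.10 (limma adjusted p = 0.111) and was the gene called higher by DESeq2 (adjusted p = 0.0284) and with quantile normalisation (0.0357). Over all the lists, without the members, limma called 1 of 86 genes higher and 4 lower in old mice. Of all genes, it called 2.71% higher and 2.55% lower.

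The genes beside the metallothionein cluster were tested as well. Of the 5 measured genes on each side, 1 was called by limma, which called 5.25% of all genes. Some of these neighbours were near the limit of detection, the lowest at 0 to 4.08 per library. Gnao1, a G protein gene of neurons that ends 168 kb before Mt4, stood at 1797, 1638 and 1808 in young and 1130, 1067 and 1361 in old replicates 1, 2 and 3. It fell by 0.57 ± 0.12 (limma adjusted p = 0.0308), a call that held without old replicate 3 (0.0231) and was lost without any other 1 library (0.0524 to 0.145). The nearest genes, Bbs2 at 38.3 kb before and Nup93 at 34.2 kb after the cluster, had log2 differences of 0.08 (95% interval −0.19 to 0.34, limma adjusted p = 0.756) and −0.46 (−0.89 to −0.03, adjusted p = 0.206).

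Markers of other cells were compared between the groups as well, by limma calls, which covered 2.71% of all genes as higher and 2.55% as lower in old mice. Of 10 macrophage markers, 6 were called higher and 0 lower, with summed levels of 6871 to 8096 in young and 22793 to 33130 in old libraries. Of 6 fibrocyte markers, 1 was called lower, and their sum was 1011800 to 1137870 in young and 427767 to 929619 in old libraries. Neutrophil markers summed to 261 to 434 in young mice and to 5097, 587 and 9937 in old replicates 1, 2 and 3, with 1 of 9 called higher. Erythroid markers summed to 2884 to 4960 in young mice and to 21942, 7125 and 43294 in old replicates 1, 2 and 3, with 0 of 8 called. Of 7 bone markers, 4 were called lower, with sums of 4647 to 7179 in young and 2864 to 3857 in old libraries. Of 6 skeletal muscle markers, 2 were called lower, with sums of 114 to 184 in young and 20.2 to 63.4 in old libraries. Of 8 neuron and Schwann cell markers, 1 was called higher, with sums of 18731 to 23113 in young and 23892 to 32355 in old libraries. The sums of young and old libraries did not overlap in any of these 7 lists. The old sums lay below the young ones for fibrocytes, bone and skeletal muscle, and above them for the rest of the 7. In these 7 lists, the markers at 0 in at least 1 library were Acta1 and Myh1 of skeletal muscle. The sums did overlap in the remaining lists: marginal, intermediate and basal cells, spindle and root cells, endothelium and pericytes, and hair cells. Marginal cell sums, for example, were 222165 to 254977 in young and 201246 to 275493 in old libraries. Of the markers in these overlapping lists, 1 of 7 for intermediate cells was called higher and the rest were not called. The part of any of these in the levels of Mt1 and Mt2 was not tested.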

How the data were processed

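The table holds gene values of 6 libraries, 1 per mouse. RNA extraction used the miRNeasy Mini Kit and library preparation a TruSeq kit, per the labels' protocols. Per the submitters' processing notes, Partek, TopHat2, DESeq2 and the build mm10 were used; roles, versions and annotation are not given in the sources used here. Each deposited value is a normalised signal, the reads of a gene divided by a library size factor: dividing by 1 step per library made 99.9% of values whole to within 0.1. No pair of libraries agreed within counting noise, and counting precision covers counting error only.

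Groups were compared with limma 3.58.1 (R 4.3.3, trend and robust) on log2(value + 1), without a filter, with Benjamini-Hochberg adjustment and a threshold of 0.05. Fold changes on this scale understate those of low genes. The plan allowed edgeR for raw counts, and limma was used because the values are normalised. An exact permutation test of 3 against 3 cannot go below p = 0.1 and was not run. Alternatives were pseudocounts of 0.1 and 10, a mean of at least 10, quantile normalisation, limma without trend or robust estimation, a replicate block, each library left out, and edgeR 4.0.16 (TMM) and DESeq2 1.42.0 on recovered reads. Scripts were tested on simulated data.

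The members and lists were chosen with earlier results of these data known. By rule, the named genes are the members, Mt3, the 3 genes of each list with the smallest p, cluster neighbours that were called, and the 5 most similar genes per member. Slc39a14, Nr3c1, Bbs2, Nup93 and the other genes described in young replicate 1 fall outside it and were chosen after their values were seen. Of the symbols, 16827 matched GENCODE M21, and promoters come from RefSeq (GRCm38.p6). Length per gene is that of the longest principal transcript. Among genes named from the lists or as markers, several overlap exons on the opposite strand, so their reads are uncertain. They are Cebpd, Ftl1, G6pdx, Il6ra, Kcnq1, Myh1, Pmel, Slc30a4, Slc39a13 and Usf2. The cluster neighbours and the most similar genes were not checked for such overlap.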

Additional observations from a re-analysis of the deposited data

How the results depend on the processing

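The log2 differences of Mt1, Mt2, Mtf1 and Slc30a1 kept their sign under every alternative run. This is no test, because the genes were chosen with these values known. For Mt1 and Mt2, whose groups did not overlap, leaving out a library could not change the sign. Without 1 library they ran from −1.19 to −0.75 for Mt1, −1.75 to −1.21 for Mt2, −0.65 to −0.19 for Mtf1 and −0.36 to −0.07 for Slc30a1, and the log2 ratio of Mt2 to Mt1 from −0.57 to −0.35. With quantile normalisation they were −0.86, −1.33, −0.37 and −0.18.

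The number of genes called was 898. It was 337 without trend or robust estimation, 1819 with DESeq2 and 230 to 1134 without 1 library (561, 288 and 230 without young replicates 1, 2 and 3). Of the list genes, 5 were called, against 1 without trend or robust estimation, 13 with DESeq2 and 1 to 10 without 1 library, with 1 without young replicate 2 or 3 and 10 without old replicate 2. Of the cluster neighbours 1 was called, 0 without trend or robust estimation and 0 to 1 without 1 library. With the replicate block, 406 genes, 2 list genes (against 5) and 0 neighbours were called. Same-numbered libraries did not deviate together (r of −0.24, −0.10 and −0.09), and libraries of different number had r of −0.146 to 0.235. With 3 libraries per group, these values cannot tell whether same-numbered libraries were handled together. Among the genes named from the lists, Mt3 alone changed sign; it ran from −0.00086 without old replicate 3 to 0.38 without old replicate 2. Of all list genes, the number below 0 also moved among promoter factors (8, and 6 with quantile normalisation) and copper genes (5, 3 with quantile normalisation, 4 with edgeR or DESeq2). The causes were not tested. Each group has 3 mice, which limits the precision more than depth does.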
